A study of Mus musculus with 16 samples.

Results

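The data described here are DNA junctions that joined a cut in the Myc gene to the part of mouse chromosome 15 on the telomeric side of Myc, more than 1 Mb from the cut. A junction was taken as a member when its prey, the sequence joined to the cut, aligned to chromosome 15 above position 62819433 of mm9. The cut was placed at 61819433, the median position of the junctions named Myc in these same data. This part, called the telomeric arm or the arm here, thus runs over 40.7 Mb to the chromosome end at 103494974. The part more than 1 Mb on the other side of the cut is called the centromeric arm. Both names mark sides of the cut and not separate chromosome arms. Of 141167 junctions in the 16 libraries, 5274 were members. A further 9166 lay on chromosome 15 more than 1 Mb centromeric of the cut, and 33479 lay on other chromosomes. These 3 classes add up to 47919 junctions, called distant junctions here.

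The study used HTGTS, high-throughput genome-wide sequencing of translocations, a method that reads the junctions between a chosen break and the rest of the genome. The cells were IgM+ B cells from the spleens of 129sv mice aged 6 to 8 weeks, and every group carried 25 I-SceI sites as a cassette in 1 Myc allele, within intron 1. A retrovirus that expresses I-SceI and GFP supplied the enzyme that cuts the cassette. Libraries were made from genomic DNA digested with HaeIII and blocked with EcoRV and XbaI, and read on a 454 or a MiSeq sequencer. WT cells (4 libraries), ATM-/- cells (3 libraries) and WT cells given the ATM kinase inhibitor KU55933 at 10 µM from infection onward (3 libraries) received anti-CD40 (1 µg/mL) together with IL4 (20 ng/mL) as stimulus and were infected at 24 h and harvested on day 4. Cells labelled WT (3 libraries) and cells labelled ATM-/- (3 libraries) were stimulated with RP105 at 2 µg/mL, infected at 48 h and harvested on day 5. Nothing in the labels says whether the libraries of a group came from separate animals, so the p-values measure the spread between libraries, which may be technical.

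ATM is the kinase that responds to DNA double-strand breaks, holds broken ends in the repair pathway and starts the checkpoint. Junctions on the chromosome that carries the cut arise where another break on the same molecule, or on its homologue, joins the cut. B cells stimulated with anti-CD40 and IL4 express AID, the deaminase that opens breaks in the immunoglobulin heavy chain switch regions during class switching, and AID also acts at other transcribed genes. AGCT is a sequence at which AID is known to act often.

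Sequences from 2 kinds of places carry the local findings described further on. All were read from the deposited alignments, are written 5′ to 3′ on the strand given, and use mm9 coordinates.
The first lies beside Ly6e and was chosen as the 240 bases with most junctions in the larger group of junctions there. AGCT, in capitals, played no part in that choice. Within these 240 bases 82 junctions from 12 libraries started.
Beside Ly6e, chr15:74763690-74763929, plus strand: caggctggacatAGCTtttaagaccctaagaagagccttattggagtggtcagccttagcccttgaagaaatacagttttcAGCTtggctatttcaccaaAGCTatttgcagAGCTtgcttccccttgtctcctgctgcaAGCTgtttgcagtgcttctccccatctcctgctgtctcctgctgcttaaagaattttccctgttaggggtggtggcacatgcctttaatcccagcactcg
The second kind is 4 repeated positions, picked because their reads held a run of letters that also occurs at Myc. The capitals mark CCGAC, found by searching the 4 stretches of 30 letters for the longest run in common.
No gene, chr15:90129788-90129817, minus strand: cagctgcttccCCGACgatgacccatatct
Tcfcp2, chr15:100381825-100381854, minus strand: gctagCCGACgaagtgatcgagtcggggct
Zfp385a, chr15:103151101-103151130, plus strand: agctgcaagtCCGACctgaactcttactct
Fam135b, chr15:71391490-71391519, plus strand: gtCCGACgatagaagcactcagcctgtggg

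Libraries held 4484 to 18264 junctions, of which 711 to 8370 were distant. All 3 KU55933 libraries and all RP105 libraries were read on a MiSeq and the others on a 454, so inhibitor or stimulus and sequencer cannot be told apart. No value here tests the genotype labels under RP105, and there several measures ran against the direction seen under anti-CD40 and IL4. The share of plus-strand junctions from 0.1 to 1 Mb telomeric of the cut was 89.4% ± 1.35 (SD, n = 4) in WT, 63.1% ± 7.53 (n = 3) in ATM-/- and 73.5% ± 6.36 (n = 3) with KU55933. It was 56.4% ± 10.1 (n = 3) in the RP105 libraries labelled WT and 86.2% ± 3.23 (n = 3) in those labelled ATM-/-. Results under RP105 are therefore given by label. Prey that began in a CA repeat made up 16% to 21.5% of junctions outside chromosome 15 in the libraries labelled ATM-/- under RP105 and 7.77% to 9.83% in those labelled WT. They made up 2.83% to 3.30% with KU55933 and at most 0.958% in the other libraries. On the telomeric arm they were 0.360% of junctions, so they entered the denominators of the shares below and hardly the counts.

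The telomeric arm took a larger share of distant junctions in ATM-/- cells than in WT cells. The 4 WT libraries held 181, 118, 176 and 92 telomeric junctions, which were 10.8%, 10.5%, 9.51% and 10.1% of their distant junctions. The 3 ATM-/- libraries held 477, 546 and 348, which were 15.1%, 14.0% and 12.6%. Every ATM-/- library lay above every WT library, with means of 13.9% ± 1.27 and 10.2% ± 0.550.

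Against all junctions of a library, those near the cut included, the gap was wider. Telomeric junctions were 6.17% to 6.46% of all junctions in ATM-/- libraries and 1.97% to 2.62% in WT. In edgeR's quasi-likelihood fit of 23 parts of the genome, the telomeric arm rose by 0.45 on the log2 scale (SE 0.10, adjusted p = 0.00112), 1.36-fold. That fit called 30.4% of its parts, and the median log2 fold change over all parts was -0.16. The exact permutation test of the difference of 3.67 percentage points gave p = 0.0286, the smallest possible for 4 against 3, and 0.200 after Benjamini-Hochberg adjustment over 36 tests. With the sequencing run as a block the value was 0.46 with adjusted p = 0.0531, and within the 2 runs that held both genotypes the log2 ratio of the share was 0.56 and 0.32.

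**Figure D1:**
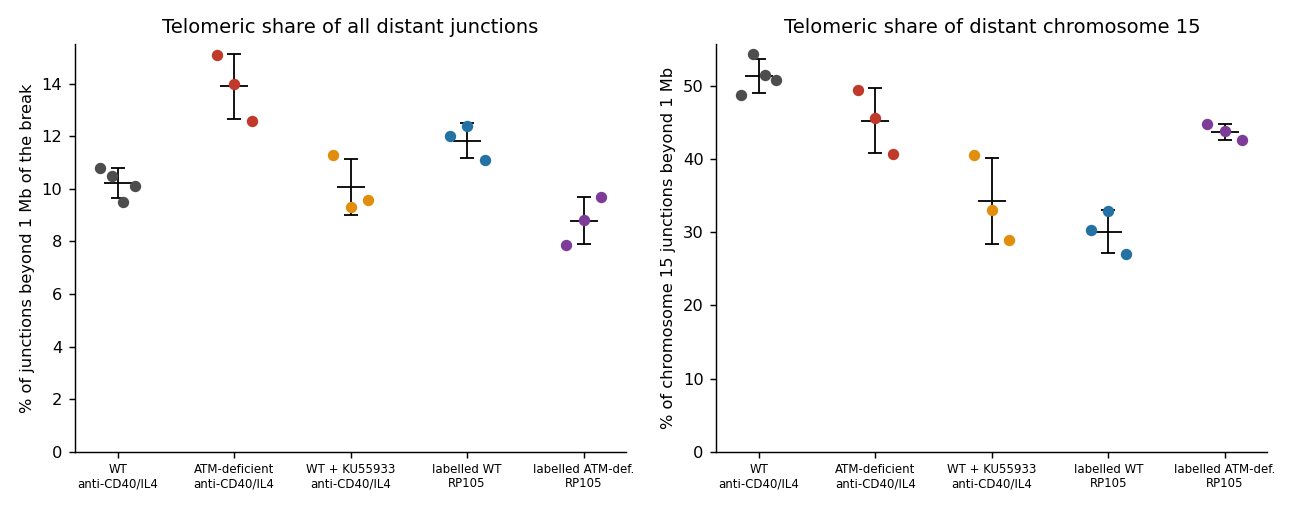
Each point is 1 library, bars are the group mean and SD. The left axis is the telomeric share of distant junctions in percent, where the 3 ATM-/- libraries (12.6% to 15.1%) lie above all others. The right axis is the telomeric share of distant chromosome 15 junctions in percent, highest in WT (48.8% to 54.4%) and lowest in the RP105 libraries labelled WT (27.0% to 32.9%).

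KU55933 did not move the telomeric share of distant junctions detectably. Its 3 libraries held 565, 706 and 801 telomeric junctions, the largest counts of the series, and shares of 11.3%, 9.33% and 9.57%. These spanned the WT range, with a mean of 10.1% ± 1.08 (SD, n = 3). EdgeR gave -0.02 (SE 0.10, adjusted p = 0.926), where 34.8% of parts were called. The sign of this value turned with 3 other scalings, up to 0.16, and with CA-repeat starts left out (0.0012). Against all junctions the KU55933 share, 4.14% to 5.37%, lay above that of every WT library.

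ATM-/- libraries also differed from KU55933 libraries, which have the same WT genotype as the controls. Their telomeric share was 3.82 percentage points higher, and the groups did not overlap. EdgeR gave 0.47 (SE 0.09, adjusted p = 0.00108), 1.39-fold, with 17.4% of parts called. The exact permutation p was 0.1, the smallest that 3 against 3 allows, and 0.200 after adjustment. This comparison and the preceding ones share libraries, and here genotype cannot be told apart from inhibitor and sequencer.

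Under RP105 the labelled genotypes stood the other way round. Libraries labelled WT held 321, 190 and 470 telomeric junctions, or 12%, 12.4% and 11.1% of distant junctions. Libraries labelled ATM-/- held 56, 82 and 145, or 7.88%, 8.81% and 9.69%. The groups did not overlap, with means of 11.8% ± 0.660 and 8.79% ± 0.908. These small counts limit precision: the Wilson 95% interval of the lowest share ran from 6.12% to 10.1%, while that of KU55933 replicate 3 ran from 8.96% to 10.2%. Such intervals cover counting error only.

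EdgeR gave -0.39 (SE 0.12, adjusted p = 0.00888) for labelled ATM-/- against labelled WT, in a comparison where 56.5% of parts were called and the median part had 0.40. The exact permutation p was 0.1 and 0.200 after adjustment. With the run as a block the value was -0.37 (adjusted p = 0.0845), and with CA-repeat starts left out -0.25 (adjusted p = 0.0712), so both settings ended the call. With library size taken outside chromosome 15 it was -0.79, with TMM factors -0.70 and with DESeq2 -0.74. The log2 ratio within the 2 runs that held both labels was -0.57 and -0.20.

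Between stimuli the arm fell in libraries labelled ATM-/- and was not called in those labelled WT. For ATM-/- the share dropped by 5.09 percentage points from anti-CD40/IL4 to RP105, and edgeR gave -0.64 (SE 0.12, adjusted p = 0.00016), where 34.8% of parts were called. For WT the share was 1.61 percentage points higher under RP105, and edgeR gave 0.20 (SE 0.10, adjusted p = 0.0931), where 60.9% of parts were called. That value passed the threshold with library size taken outside chromosome 15 (0.61), TMM factors (0.54), DESeq2 (0.54) and CA-repeat starts left out (0.27), and was 0.07 over distinct positions. The exact permutation p was 0.1 for ATM-/- and 0.0286 for WT, each 0.200 after adjustment. The edgeR interaction, which subtracts the labelled genotype difference under anti-CD40/IL4 from the one under RP105, was -0.84 (SE 0.15, adjusted p = 0.000141), with 78.3% of parts called and a median part of 0.61. It was -1.44 with library size taken outside chromosome 15, -1.29 with TMM factors and -1.28 with DESeq2.

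How chromosome 15 junctions split between its 2 sides followed another order than the share of all distant junctions. The telomeric side held 51.4% ± 2.31 (SD, n = 4) of distant chromosome 15 junctions in WT and 45.3% ± 4.43 (n = 3) in ATM-/-, with overlapping libraries. KU55933 libraries held 40.6%, 33.1% and 29%, all below every WT library. Under RP105 the libraries labelled WT held 30.1% ± 2.96 and those labelled ATM-/- 43.8% ± 1.08 (n = 3 each).

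The centromeric side was the larger mover. It took 9.71% ± 1.16 of distant junctions in WT, 16.8% ± 1.47 in ATM-/-, 19.6% ± 3.54 with KU55933, 27.6% ± 2.36 under RP105 labelled WT and 11.3% ± 1.67 under RP105 labelled ATM-/-. Per Mb, the telomeric arm was 1.58 ± 0.149 times as dense as the centromeric arm in WT and 0.646 ± 0.0902 times in the RP105 libraries labelled WT. The difference in telomeric share of chromosome 15 from WT was -17.1 percentage points for KU55933 and -21.3 for RP105 labelled WT (exact permutation p = 0.0286 each). Under RP105 the labelled genotypes differed by 13.7 percentage points (exact permutation p = 0.1). All were 0.200 after adjustment. Over the 16 libraries the mean log2 ratio of telomeric to centromeric density was 0.07 ± 0.534, with an exact sign-flip permutation p = 0.583.

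Density along the arm did not fall steadily with distance. Summed over libraries it was 224 junctions per Mb from 1 to 2 Mb, 152 from 2 to 5 Mb and 68.8 from 5 to 10 Mb. It then rose to 204 per Mb from 10 to 20 Mb, where 2037 of the members lay, and fell to 115 from 20 to 30 Mb and 91.0 beyond. For comparison, the stretch from 0.1 to 1 Mb held 1640 per Mb. The same dip from 5 to 10 Mb stood in the mean of each of the 5 groups.

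**Figure D2:**
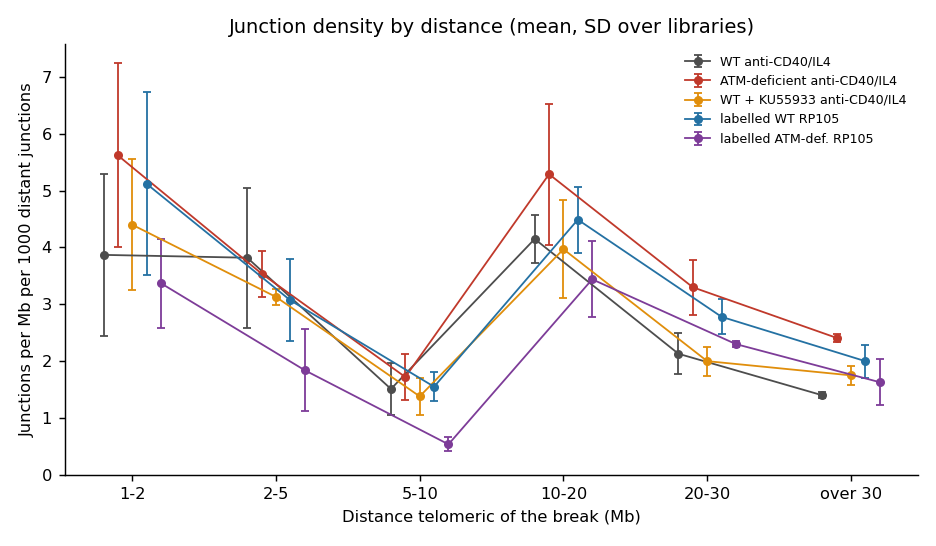
The vertical axis is junctions per Mb per 1000 distant junctions and the horizontal axis is distance telomeric of the cut. Points are group means and bars the SD over libraries. All groups are lowest or near their lowest from 5 to 10 Mb (0.536 to 1.72) and higher from 10 to 20 Mb (3.44 to 5.29).

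ATM-/- libraries exceeded WT libraries most clearly in the outer windows. Beyond 30 Mb, WT libraries had 1.33, 1.44, 1.43 and 1.41 junctions per Mb per 1000 distant junctions, and ATM-/- libraries 2.33, 2.45 and 2.44. From 20 to 30 Mb WT had 1.85, 2.66, 2.05 and 1.97, and ATM-/- 3.87, 3.05 and 3.0. Neither window overlapped between genotypes. From 10 to 20 Mb the means were 5.29 ± 1.24 in ATM-/- and 4.15 ± 0.417 in WT.

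In edgeR's fit of 33 parts, with each side of chromosome 15 in 6 distance windows, both outer windows rose in ATM-/- against WT. They had 0.78 (SE 0.15, adjusted p = 0.000501) beyond 30 Mb and 0.65 (SE 0.16, adjusted p = 0.00219) from 20 to 30 Mb, where 36.4% of all parts were called. From 10 to 20 Mb the value was 0.38 (SE 0.18, adjusted p = 0.117), from 1 to 2 Mb 0.52 (SE 0.39, adjusted p = 0.318), from 5 to 10 Mb 0.14 (SE 0.30, adjusted p = 0.733) and from 2 to 5 Mb -0.18 (SE 0.25, adjusted p = 0.602). Whether the windows differ from each other in this contrast was not tested.

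ATM-/- against KU55933 had the same 2 windows called, with 0.74 (SE 0.13) from 20 to 30 Mb and 0.46 (SE 0.12) beyond 30 Mb, and 9.09% of parts called. The second lost its call with TMM factors (0.40), with DESeq2 (0.40) and without ATM-/- replicate 1 (0.48) or 2 (0.45) or KU55933 replicate 2 (0.39). KU55933 against WT had 0 of 6 windows called by edgeR and 0 by DESeq2, with 1 at an unadjusted p under 0.05. EdgeR called 36.4% of all parts there at the adjusted threshold.

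Under RP105 the window from 5 to 10 Mb stood lowest in the libraries labelled ATM-/-, which held 2, 3 and 3 junctions there. Libraries labelled WT held 20, 14 and 28, and densities were 0.536 ± 0.124 and 1.55 ± 0.257 per Mb per 1000. EdgeR gave -1.52 (SE 0.49, adjusted p = 0.0124) with 54.5% of parts called, and without labelled ATM-/- replicate 3 the value was -1.27 (adjusted p = 0.105). The other 5 windows did not pass, with values of -0.77 to -0.25. With library size taken outside chromosome 15, 5 of the 6 windows were called, and with the shared-run reads described further on left out, 2 were.

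Between stimuli, 4 of 6 windows fell in libraries labelled ATM-/-, where 36.4% of parts were called. They were the window from 5 to 10 Mb with -1.71 (SE 0.47) and the 3 beyond it with -0.58, -0.52 and -0.54. With CA-repeat starts left out those 3 were -0.36, -0.34 and -0.33 and did not pass. Each of the 4 also lost its call without at least 1 library, with adjusted p up to 0.161, and labelled ATM-/- RP105 replicate 3 alone did so for the window from 5 to 10 Mb (-1.47, adjusted p = 0.0655). In libraries labelled WT only the window beyond 30 Mb rose, with 0.55 (SE 0.16, adjusted p = 0.00586), and 57.6% of parts were called. It was 0.96 with library size taken outside chromosome 15. The interaction was called in 4 of 6 windows, all lower, with 75.8% of parts called. From 10 to 20 Mb that call ended with CA-repeat starts left out (-0.53, adjusted p = 0.0883) and without any of 7 single libraries, with adjusted p up to 0.094. From 5 to 10 Mb it ended without labelled ATM-/- RP105 replicate 3 (-1.41, adjusted p = 0.0814).

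In bins of 5 Mb the arm gave few calls. EdgeR tested 477 bins over the genome, 9 of them on the arm. The shares of bins called, here and in the next paragraph, are edgeR's at the adjusted threshold. The share of all bins called by DESeq2, or at an unadjusted p under 0.05, was not computed. The DESeq2 and unadjusted counts on the arm thus have no background. In libraries labelled ATM-/- 3 of the 9 fell from anti-CD40/IL4 to RP105, with 3.35% of all bins called: 65 to 70 Mb of the chromosome (log2 fold change -1.67, SE 0.46), 70 to 75 Mb (-1.24, SE 0.33) and 85 to 90 Mb (-1.18, SE 0.35). All 3 ended with CA-repeat starts left out (-1.60, -1.01 and -1.01) and without at least 4 of 6 single libraries. In ATM-/- against WT 0 of 9 were called by edgeR and 4 by DESeq2, with 4 at an unadjusted p under 0.05 and 1.26% of bins called. For the labelled genotypes under RP105 edgeR called 0 and DESeq2 2, with 2 at an unadjusted p under 0.05 and 2.31% of bins called. In the interaction edgeR called 0 and DESeq2 4, with 6 at an unadjusted p under 0.05 and 3.35% of bins called.

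For the other bin comparisons edgeR also called 0 of 9. KU55933 against WT had 0 by DESeq2 and 0 at an unadjusted p under 0.05, with 2.31% of bins called. ATM-/- against KU55933 had 0 and 4, with 0.419% of bins called, and RP105 against anti-CD40/IL4 in libraries labelled WT had 1 and 2, with 3.56%.

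Distance summaries per library moved less than the window densities. Of telomeric junctions, 14.9% ± 4.13 (SD, n = 4) lay from 1 to 5 Mb in WT, 11.8% ± 1.88 in ATM-/-, 13.7% ± 0.393 with KU55933, 12.1% ± 0.836 under RP105 labelled WT and 10.1% ± 1.36 under RP105 labelled ATM-/- (n = 3 each). Median distances were 15.4 ± 1.89, 18.5 ± 0.694, 16.9 ± 1.11, 18.6 ± 0.522 and 20.0 ± 0.195 Mb in the same order. WT had the lowest mean, with library medians of 13.3 to 17.4 Mb that overlapped those of KU55933 (15.7 to 17.9 Mb), and every ATM-/- library lay above every WT library. The exact permutation p for ATM-/- against WT was 0.0571 for the median distance and 0.314 for the share from 1 to 5 Mb, with 0.200 and 0.492 after adjustment.

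Summed over libraries, the plus-strand share was lower on the arm than closer to the cut, by an amount that varied between groups. Plus-strand prey made up 94.1% of junctions within 10 kb telomeric of the cut, 79.3% from 10 to 100 kb and 80.9% from 0.1 to 1 Mb. From 1 to 2 Mb the share was 51.3% (Wilson 95% interval 44.8% to 57.8%), and in the 5 windows beyond it lay between 45.7% and 49.0%. WT libraries gave 685 of the 1479 junctions from 0.1 to 1 Mb, so they weigh most in that sum. By group, the mean went from 89.4% at that distance to 30.8% ± 21.7 from 1 to 2 Mb in WT and from 86.2% to 30.6% ± 4.81 under RP105 labelled ATM-/-. It went from 63.1% to 39.5% ± 20.9 in ATM-/-, from 73.5% to 61.7% ± 7.94 with KU55933 and from 56.4% to 53.4% ± 11.8 under RP105 labelled WT. The last group thus showed no drop beyond its spread. From 1 to 2 Mb the WT libraries held 10, 4, 5 and 3 junctions and the RP105 libraries labelled ATM-/- held 3, 3 and 4. Their means there, and the small SD of the latter, rest on these few junctions. ATM-/- libraries held 56 there in all, KU55933 libraries 89 and RP105 libraries labelled WT 47. From 2 to 5 Mb means ran from 36.4% in WT to 61.7% under RP105 labelled WT, and beyond 10 Mb all lay between 39.3% and 56.1%.

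**Figure D3:**
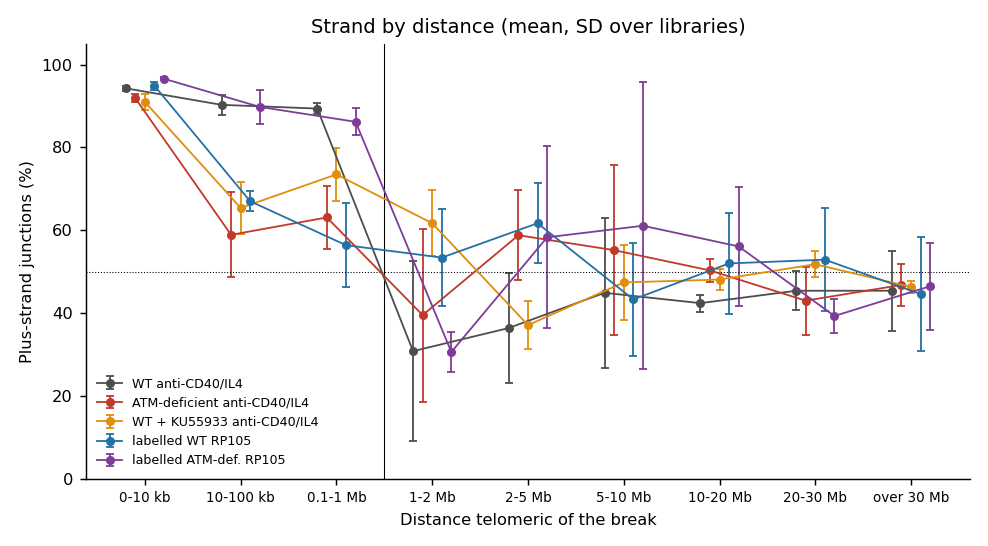
The vertical axis is the percent of junctions on the plus strand and the horizontal axis is distance telomeric of the cut. Points are group means, bars the SD over libraries, and the vertical line marks 1 Mb. Group means range from 56.4% to 89.4% from 0.1 to 1 Mb and from 30.6% to 61.7% beyond 1 Mb, on both sides of the dotted 50 line. The lowest, under RP105 labelled ATM-/- from 1 to 2 Mb, rests on 10 junctions.

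Over the whole arm WT libraries leaned to the minus strand, with plus-strand shares of 40.3%, 44.9%, 42% and 42.4%. Means were 48.3% ± 3.08 in ATM-/-, 47.9% ± 1.79 with KU55933, 50.9% ± 3.99 under RP105 labelled WT and 48.4% ± 5.47 under RP105 labelled ATM-/- (n = 3 each). The RP105 libraries labelled WT lay above all 4 WT libraries by 8.51 percentage points on average (exact permutation p = 0.0286, adjusted p = 0.200). The KU55933 libraries also lay above all WT libraries, by 5.47 percentage points (exact permutation p = 0.0571, adjusted p = 0.200).

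The telomeric arm carried fewer plus-strand junctions than the centromeric arm in every library. The difference averaged -17.2 percentage points ± 7.72 (SD, n = 16), ranged from -29 to -1.01, and had an exact sign-flip permutation p = 3.05e-05, which is the smallest that 16 libraries allow, and 0.000107 after adjustment over 7 such tests. Mean shares were 47.3% and 64.5%. Against other chromosomes, with 50.1%, the telomeric arm was lower by 2.80 percentage points (12 of 16 libraries, adjusted p = 0.0353 by the same exact test). That test pools all groups, and the gap was widest in WT, with 42.4% and 50.6%. Means were 48.3% and 49.9% in ATM-/-, 47.9% and 49.4% with KU55933 and 48.4% and 50.7% under RP105 labelled ATM-/-. Under RP105 labelled WT the arm was higher, with 50.9% and 49.5%. The difference from the centromeric arm did not hold in every window and group. In ATM-/- the pooled telomeric and centromeric shares were 58.3% and 56.5% from 2 to 5 Mb, and 50.8% and 50.6% from 10 to 20 Mb.

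More telomeric than centromeric junctions carried a gene name in the files. The shares were 55.0% and 41.7% on average, higher on the telomeric arm in 16 of 16 libraries, by 13.3 percentage points ± 4.94 (exact sign-flip permutation p = 3.05e-05, adjusted p = 0.000107). Junctions outside chromosome 15 had 54.9%, and the difference of 0.0554 percentage points from the telomeric arm had p = 0.969 by the same exact test. Between groups the telomeric share was 54.7% ± 5.69 in WT, 55.0% ± 2.65 in ATM-/-, 52.8% ± 2.53 with KU55933, 53.6% ± 1.21 under RP105 labelled WT and 58.9% ± 5.32 under RP105 labelled ATM-/-. All groups overlapped in each of the 6 comparisons, with adjusted exact permutation p of at least 0.492. By distance the label was least frequent from 1 to 2 Mb (27.2%) and from 5 to 10 Mb (31.7%), and most frequent from 2 to 5 Mb (67.0%), where Asap1, Adcy8 and Kcnq3 lie.

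Locally, junctions gathered at 5 clusters of at least 30 junctions with gaps of at most 1000 bases, which were picked out after their counts were seen and are given without a test. They held from 50 to 158 junctions each. Among them, 3 lay close together at and beside Ly6e and 1 was a run of 12 bases without a gene. Without the 5 clusters the telomeric share was 9.04% ± 0.524 in WT, 13.2% ± 0.997 in ATM-/-, 9.0% ± 0.475 with KU55933, 11.4% ± 0.746 under RP105 labelled WT and 7.67% ± 0.481 under RP105 labelled ATM-/-. The order of the group means was the same as with the clusters, and WT and KU55933 overlapped either way.

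**Figure D4:**
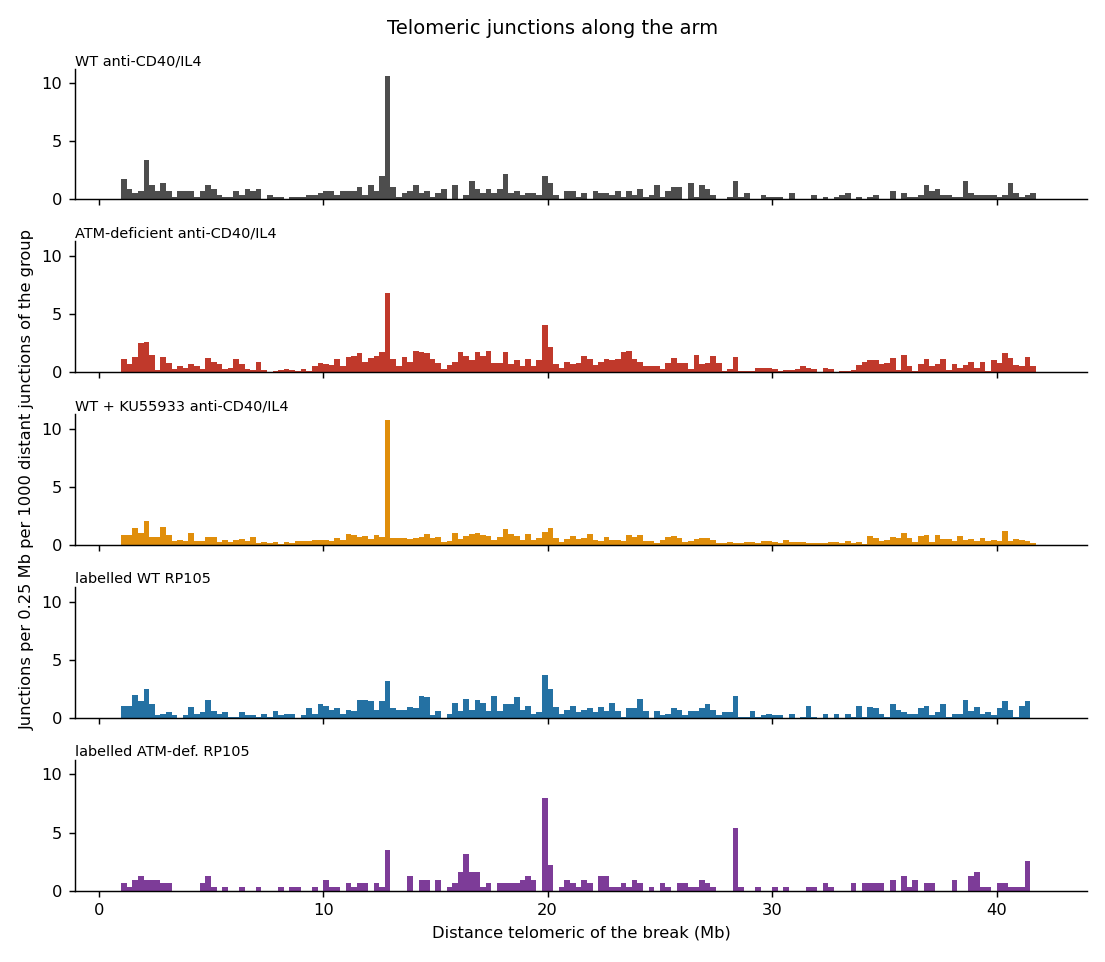
Bars count junctions per 0.25 Mb per 1000 distant junctions of the group, against distance telomeric of the cut in Mb, with 1 panel per group. The Ly6e area, 13.0 Mb from the cut, is the tallest bar in the 3 anti-CD40/IL4 groups. In the RP105 libraries labelled ATM-/- a repeated position at 28.3 Mb is among the tallest bars.

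Ly6e, which encodes a surface protein of the Ly6 family tethered to the membrane by a lipid anchor, was the gene on the arm with most junctions. Its 153 junctions fell on 148 combinations of library, position and strand. WT libraries held 12, 7, 10 and 3, ATM-/- libraries 10, 9 and 3, and KU55933 libraries 46, 28 and 16. RP105 libraries labelled WT held 0, 1 and 3, and those labelled ATM-/- 0, 1 and 4. Every anti-CD40/IL4 library thus had at least 3 Ly6e junctions, and KU55933 replicate 1 alone had 46. Per 1000 distant junctions the means were 5.51 ± 1.65 in WT (n = 4), 2.19 ± 1.05 in ATM-/-, 4.94 ± 3.8 with KU55933, 0.454 ± 0.394 under RP105 labelled WT and 1.25 ± 1.35 under RP105 labelled ATM-/- (n = 3 each).

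In the edgeR fit of 328 genes with at least 10 junctions, 79 of them on the arm, Ly6e fell from anti-CD40/IL4 to RP105 in libraries labelled WT. Its log2 fold change was -3.49 (SE 0.70, adjusted p = 4.95e-05), and without any single library it lay between -4.33 and -2.96 and stayed called. It was the only arm gene called in that comparison, where 3.05% of all genes were called, and DESeq2 also called 1. In libraries labelled ATM-/- the stimulus difference for Ly6e was -0.51 (SE 0.77, adjusted p = 0.733). The interaction had 2.98 (SE 1.14, adjusted p = 0.325). ATM-/- against WT gave -1.34 (SE 0.52, adjusted p = 0.415) and KU55933 against WT -0.25 (SE 0.45, adjusted p = 0.875). The sign of the last turned with TMM factors (1.01), DESeq2 (0.18) and without KU55933 replicate 3 (0.15).

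A pair of clusters without a gene name lay on the centromeric side of Ly6e, at chr15:74750686-74757780 with 61 junctions and chr15:74761202-74765952 with 104, and the cluster at Ly6e itself at chr15:74784638-74789728 held 158. Of the 61, KU55933 libraries held 41 and WT libraries 13. Of the 104, KU55933 libraries held 72, ATM-/- libraries 20 and WT libraries 9, and the RP105 libraries labelled WT 3. All 3 together made up 11.6%, 8.47%, 7.95% and 10.9% of telomeric junctions in WT. They made up 4.62%, 3.85% and 1.73% in ATM-/- and 17.5%, 9.07% and 5.24% with KU55933. Under RP105 the share was at most 1.28% in libraries labelled WT and 3.45% in those labelled ATM-/-. The anti-CD40/IL4 libraries of WT and KU55933 cells lay above all others.

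The second of these clusters holds the stretch printed above. Of its junctions 61.5% had AGCT (read on the prey strand; the reverse complement is the same letters) in the first 50 prey bases, against 39.3% in the first, 18.4% at Ly6e and 23.5% of telomeric junctions outside the clusters. At the repeated position without a gene, described further on, 49 of 50 junctions had it, and 48 of the 50 began at the same base. The share was 24.9% over the whole arm, 20.9% centromeric and 24.7% on other chromosomes. Per library the telomeric share exceeded that of other chromosomes by 1.53 percentage points ± 6.48 (SD, n = 16; exact sign-flip permutation p = 0.364). Group means differed in sign. RP105 libraries labelled ATM-/- had 31.7% ± 3.91 on the arm and 20.6% ± 0.577 outside chromosome 15, higher on the arm in all 3. WT had 24.9% ± 4.95 and 29.0% ± 1.70, but WT replicate 2 went the other way with 30.5% and 26.5%. In those RP105 libraries 16 of the 283 arm junctions lay at that repeated position. CA-repeat starts averaged 1.83% of their junctions on the arm and 18.7% outside chromosome 15. What either adds to the difference was not tested. At Ly6e 50% of junctions were on the plus strand, and in the clusters beside it 34.4% and 41.3%.

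**Figure D5:**
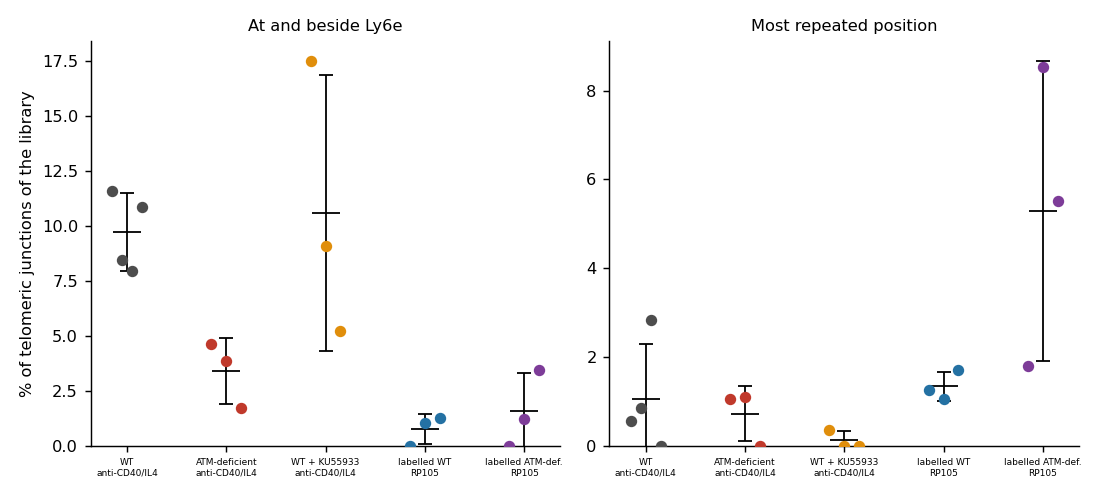
Points are libraries and bars the group mean and SD, and the vertical axis is the percent of a library's telomeric junctions. The 3 clusters at and beside Ly6e reach 17.5% with KU55933 and at most 3.45% under RP105. The most repeated position is highest under RP105 labelled ATM-/- (mean of 5.28%).

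Some positions recurred far beyond the rest of the arm. A position and strand was called repeated when it had at least 3 junctions in 1 library or appeared in at least 3 libraries. There were 47, with 238 junctions, or 4.51% of the members. Of the 27 that came from 1 library only, 22 came from RP105 libraries labelled WT. Telomeric junctions that repeated a position of their own library numbered 0 to 18 per anti-CD40/IL4 library, 59, 13 and 59 in the RP105 libraries labelled WT and 5, 9 and 17 in those labelled ATM-/-. Outside chromosome 15 there were 8 such junctions in ATM-/- replicate 3 and 0 in every other library. The centromeric arm had them too, with 56, 16 and 78 in the RP105 libraries labelled WT, 1, 2 and 7 in those labelled ATM-/- and 0 to 11 in the others. Such junctions thus entered the shares above from chromosome 15 and hardly from elsewhere. They were 12.6% ± 5.77 of telomeric junctions under RP105 labelled WT and 10.5% ± 1.45 under RP105 labelled ATM-/-. Under anti-CD40/IL4 they were 1.69% ± 2.71 in WT, 2.61% ± 1.15 in ATM-/- and 0.862% ± 0.802 with KU55933. Why they were nearly absent elsewhere was not tested.

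The most repeated position was 90129817 on the minus strand, without a gene name, with 48 junctions from 12 libraries and at most 8 in any of them. Its cluster of 50 made up 5.28% ± 3.38 of telomeric junctions in the RP105 libraries labelled ATM-/-, 1.33% ± 0.333 in those labelled WT, 1.06% ± 1.24 in WT, 0.717% ± 0.621 in ATM-/- and 0.118% ± 0.204 with KU55933. A run of 12 letters was picked from the reads of this position, near their prey start, as one that nearly all of them held. That all 48 reads held it was thus largely fixed by the choice. Among the deposited alignments the run occurred only at Myc, within 0.824 kb of the cut. The positions in Tcfcp2 (7 junctions), Zfp385a (7) and Fam135b (5) printed above were picked, by count, from repeated positions with reads that held the run. All reads at these positions held it. The 4 stretches share 6 to 8 letters in a row, on either strand, with the Myc letters around that run. How often other stretches share as many was not tested, nor whether CCGAC is among the shared letters. In all, 81 telomeric junctions at 12 positions and 521 junctions on other chromosomes held the run. Its part in these junctions was not tested. With those reads left out the stimulus difference of the window from 20 to 30 Mb in libraries labelled ATM-/- was -0.80 in place of -0.52.

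Over the arm 458 gene names had at least 1 junction, and 432 of them matched RefSeq symbols or synonyms. The 20 with most junctions held 913, or 17.3% of the members. Besides Ly6e they included Asap1, an Arf GTPase-activating protein (99 junctions), Trappc9, a subunit of the TRAPP vesicle tethering complex (60), Fam49b, now Cyrib, a regulator of Rac1 and actin (59), Adcy8, an adenylate cyclase best known from neurons (55), and Kcnq3, a voltage-gated potassium channel subunit (44). Others were Fam19a5, now Tafa5 (39), Fam113b, now Pced1b (36), Ptk2, the focal adhesion kinase (35), Mkl1, now Mrtfa, a coactivator of serum response factor (33), Fam135b (27), Col22a1, a collagen (26), Efcab6 (24), Scn8a, a sodium channel (24), Tbc1d22a (23), Bai1, now Adgrb1, an adhesion receptor (22), Celsr1, an atypical cadherin (22), Rbfox2, a splicing factor (22), and Cacng2, a calcium channel and AMPA receptor subunit of neurons (21).

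Asap1 lies 2.22 Mb from the cut. Its counts were 3, 3, 9 and 0 in WT, 7, 14 and 3 in ATM-/-, 7, 10 and 15 with KU55933, 9, 6 and 9 under RP105 labelled WT and 0, 1 and 3 under RP105 labelled ATM-/-. Means per 1000 distant junctions ran from 1.03 ± 1.00 in the last group to 3.13 ± 0.915 in the RP105 libraries labelled WT, and the gene passed in no comparison. Adcy8 and Kcnq3 had 0 junctions in the RP105 libraries labelled ATM-/-, where a count of 0 allows 2.01 to 4.22 per 1000 in a library, against 34 and 23 with KU55933. Adcy8 junctions leaned to the minus strand, with 23.6% on plus, while Col22a1 had 69.2% and Efcab6 75.0%.

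Genes were also grouped into 3 lists. Of 50 genes listed as transcribed in activated B cells, 45 had a junction, together 801 or 15.2% of the members, with a median of 6 per listed gene. All 15 long genes had one, together 477 or 9.04%, with a median of 23. Of 44 genes listed as silent in B cells, 25 had one, together 241 or 4.57%, with a median of 1, and over all 458 names the median was 3. No expression values were used for these lists, so transcription or silence in these cells was not tested. Lists overlap: of the 20 leading genes 7 are on the first, 9 on the second and 4 on the third. Counts here are not per length, so levels of genes cannot be compared.

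By library the transcribed list took 18.3% ± 2.21 of telomeric junctions in WT, 13.9% ± 2.27 in ATM-/-, 15.6% ± 1.73 with KU55933, 12.6% ± 2.61 under RP105 labelled WT and 17.5% ± 2.93 under RP105 labelled ATM-/-. The long genes took 9.37% ± 2.56, 8.18% ± 0.740, 9.87% ± 0.321, 9.75% ± 3.43 and 3.97% ± 0.792 in that order, and the silent genes 5.91% ± 1.31, 3.68% ± 1.25, 5.79% ± 0.578, 3.64% ± 1.45 and 1.27% ± 1.22. Both of the latter lists were lowest in the RP105 libraries labelled ATM-/-, which hold the fewest junctions. For RP105 against anti-CD40/IL4 in libraries labelled WT, where 3.05% of all 328 genes were called, edgeR called 1 of 17 tested transcribed genes (Ly6e), 0 of 14 long genes and 0 of 7 silent genes. In the other 6 comparisons it called 0 of each list, with 0.0% to 0.915% of all genes called.

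Beside Ly6e, edgeR called 0 of the 79 arm genes in every comparison. The shares of all genes given below are edgeR calls at the adjusted threshold. The share of all genes at an unadjusted p under 0.05 was not computed, so the counts of arm genes there have no background. In ATM-/- against WT 11 had an unadjusted p under 0.05 and DESeq2 called 0, while 0.915% of all genes were called; the median log2 fold change was 0.90 over arm genes and 0.44 over all genes. KU55933 against WT had 3 and 0 with 0.61% called, and ATM-/- against KU55933 had 10 and 0 with 0.0% called. The labelled genotypes under RP105 had 4 and 0 with 0.0% called. RP105 against anti-CD40/IL4 had 5 and 0 with 0.61% called in libraries labelled ATM-/-, and the interaction 7 and 0 with 0.305% called. On simulated counts of this size the gene fit recovered 1.82% of genes changed 4-fold in ATM-/- against WT and 0% in the RP105 comparison, so differences of single genes were mostly not detectable at this depth.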

How the data were processed

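Junction lists for 16 libraries were deposited by the authors, with 1 line per junction and prey coordinates on mm9, per the submitters' processing notes. For the aligner, its version and the read filters, the entry is: not given in the sources used here. Counts are the numbers of these deposited lines, and the deposited count column of reads per junction was not used. The Gap1 score is the authors' column, read here from its values as letters between bait and prey, with an overlap below 0. Of 141227 lines, 56 repeated ones, 1 broken one and 3 mitochondrial ones were dropped. All value columns were matched to a sample, with 0 left over. Position was the prey's first aligned base. The parts, windows, gene lists and tests were chosen with earlier results of these data known.

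Shares were compared between groups by two-sided exact permutation tests, with Benjamini-Hochberg adjustment over 36 tests, and within libraries by exact sign flips over 16 libraries. Counts were fitted over the whole genome with edgeR 4.0.16 (quasi-likelihood, R 4.3.3), all libraries in 1 fit, library size being the distant junctions, and a threshold of 0.05 on the adjusted p. Bins needed 20 junctions and genes 10. DESeq2 1.42.0 was an alternative. On simulated counts the fit of 23 parts recovered 96.7% of parts changed 2-fold in ATM-/- against WT and 90% in the RP105 genotype comparison, that of 33 parts 97.5% and 95%, and that of bins 10% and 5.42%. In each fit at most 8.11% of its simulated calls were false. Named genes were the 20 with most junctions on the arm, any called gene, and up to 6 leading members of each list with at least 3 junctions; of the last, only those described are given, and 1 named gene with its junction cluster is not reported here. A CA-repeat start was a prey with at least 6 CA or TG units in a row within its first 20 bases.

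Sequencing runs were read from the read names. They served as a block only in the genotype comparisons, where runs held both groups. Same-numbered replicates were not treated as pairs in the main tests. Correlations of their deviations ran from -0.824 to 0.914, which does not settle whether the numbers pair. Under RP105, replicates 2 of both labels shared a sequencing run, and so did replicates 3. Sequences came from the deposited alignments, whose 557367 letters read on the arm had 0 conflicts, and current gene symbols from RefSeq.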

Additional observations from a re-analysis of the deposited data

Results flagged for a closer look

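The labelled genotype difference changed between stimuli on the telomeric arm. The edgeR interaction, the ATM-/- minus WT difference under RP105 less that under anti-CD40/IL4 on the log2 scale, was -0.84 (SE 0.15, adjusted p = 0.000141) for the whole arm. By distance it was -1.66 (SE 0.58, adjusted p = 0.0177) from 5 to 10 Mb, -0.69 (SE 0.28, adjusted p = 0.0367) from 10 to 20 Mb, -0.90 (SE 0.24, adjusted p = 0.00421) from 20 to 30 Mb and -1.09 (SE 0.24, adjusted p = 0.000685) beyond 30 Mb. These 5 values came to attention because a test of the difference between groups passed its threshold. Of all parts 78.3% and 75.8% passed the same test in the 2 fits. These values rest on the genotype labels under RP105, which no value here tests. The labelled difference of the whole arm was -0.39 there and 0.45 under anti-CD40/IL4. Turning the labels under RP105 would turn the sign of the first value, and its size depended on the scaling, as given above. The stimuli also differed in sequencer, time of infection and day of harvest, and these cannot be told apart.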

How the results depend on the processing

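Of 669 values under other settings, 600 kept their direction and side of the threshold (for counts of calls, stayed within 1.5 times), 12 changed sign, 14 lost a call, 4 gained one and 39 moved. Leaving out 1 library at a time gave 549 kept, 22 with a changed sign, 36 lost and 20 moved. Causes were not tested. The whole arm in edgeR lost its call with the run as a block for ATM-/- against WT (0.46) and for the RP105 genotypes (-0.37), and for the latter with CA-repeat starts left out (-0.25). It gained one for RP105 against anti-CD40/IL4 in libraries labelled WT with library size outside chromosome 15 (0.61), TMM factors (0.54), DESeq2 (0.54) and CA-repeat starts left out (0.27). Scaling moved the median log2 fold change over all parts of that comparison by 0.41, 0.34 and 0.34, of the RP105 genotypes by -0.40, -0.31 and -0.35, and of the interaction by -0.61, -0.46 and -0.44. KU55933 against WT changed sign with the same settings (0.16, 0.15, 0.11 and 0.0012), and its share difference with CA-repeat starts left out (0.04), all junctions as denominator (2.46) or junctions outside chromosome 15 (1.55). The gene label share of ATM-/- against WT changed sign from 2 Mb on (-0.434) and in the replicate block (-0.554), and the plus-strand share between stimuli in ATM-/- with CA-repeat starts left out (-0.267). Ly6e changed sign in KU55933 against WT with TMM factors (1.01) and DESeq2 (0.18).

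Counts of arm windows called moved for KU55933 against WT with library size outside chromosome 15 (from 0 to 1). They moved for ATM-/- against KU55933 with DESeq2 and TMM factors (from 2 to 1 each), and for the RP105 genotypes (from 1) with library size outside chromosome 15 (5) and the shared run left out (2). Between stimuli in WT (from 1) there were 2 with CA-repeat starts left out, DESeq2, TMM factors and distinct positions and 3 with library size outside chromosome 15; in ATM-/- (from 4) there were 1 with CA-repeat starts left out and 2 with DESeq2. Bins moved from 0 for ATM-/- against WT (4 with DESeq2, 3 with TMM factors, library size outside chromosome 15 and only the compared groups, 1 with bins of 10 Mb and the replicate block). For ATM-/- against KU55933 they were 1 with bins of 10 Mb and 2 in the replicate block, and for the RP105 genotypes 2 with DESeq2 and library size outside chromosome 15 and 3 with TMM factors. Between stimuli in WT they were 3 with library size outside chromosome 15 and 1 with CA-repeat starts left out, DESeq2, TMM factors, only the compared groups and the replicate block. In ATM-/- (from 3) they were 0 with CA-repeat starts left out and 6 with TMM factors, and in the interaction (from 0) 4 with DESeq2, 7 with TMM factors, 6 with library size outside chromosome 15 and 2 with bins of 10 Mb. Genes moved from 0 to 2 for KU55933 against WT with TMM factors, from 0 to 1 for ATM-/- against KU55933 with at least 30 junctions, and from 1 to 2 between stimuli in WT with TMM factors and library size outside chromosome 15.

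Without single libraries, KU55933 minus WT ran from -0.761 to 0.226 (telomeric share), -2.92 to 0.448 (share from 1 to 5 Mb), -3.97 to 0.443 (gene label), -0.109 to 0.0274 (edgeR) and -1.01 to 0.15 (Ly6e). Gene label ran from -1.74 to 2.68 for ATM-/- minus WT and from -3.13 to 1.29 between stimuli in WT. The telomeric share of chromosome 15 ran from -3.84 to 0.574 between stimuli in ATM-/-, and plus strand from -2.45 to 2.99 there, from -0.838 to 2.11 for ATM-/- minus KU55933 and from -5.11 to 0.336 for the RP105 genotypes. Window calls ran from 1 to 3 for ATM-/- against KU55933, 0 to 1 for the RP105 genotypes, and 1 to 2 (WT) and 1 to 4 (ATM-/-) between stimuli. Bin calls ran from 0 to 1 for ATM-/- against WT, ATM-/- against KU55933 and between stimuli in WT, and from 0 to 2 between stimuli in ATM-/-, and gene calls from 0 to 1 for ATM-/- against KU55933. The replicate number, not known to pair the samples, was also used as a block. The whole arm then had 0.44 for ATM-/- against WT, -0.38 for the RP105 genotypes and -0.62 between stimuli in ATM-/-. It kept its calls in the 5 comparisons that had one and gained none in the others.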
